A study of Mus musculus with 6 samples.

Results

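The dystrophin-glycoprotein complex is the assembly of membrane and cytoplasmic proteins that ties the actin cytoskeleton of muscle to the laminin of the basement membrane. Its transcripts were examined in cultured muscle satellite cells (MuSCs), the stem cells of skeletal muscle, through the 9 genes *Dmd*, *Utrn*, *Dag1*, *Sgca*, *Sgcb*, *Sgcd*, *Sgce*, *Sspn* and *Sntb2*. They were picked by symbol, for their place in the complex, out of 20654 genes in the count table, which lists all 9. Earlier results of these data were known when they were picked.

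The RNA came from MuSCs of C57BL/6 background sorted as VCAM1-positive cells that lacked CD31, CD45 and Sca1, and grown for 3 d on Matrigel in growth medium. The 3 control libraries carry the label wild type. In the study's scheme of this experiment, these mice were *Piezo1*+/+; *Pax7*CreERT2/+. The 3 libraries labelled *Piezo1* cKO, called cKO-labelled libraries below, came from *Piezo1*flox/flox; *Pax7*CreERT2/+ mice, in which tamoxifen activates a Cre recombinase made where *Pax7*, a satellite cell gene, is expressed. By that scheme both groups carried the Cre driver. The study's methods give daily tamoxifen injections of the mice for ex vivo studies. In addition, 4-OH tamoxifen was in the medium of both groups, and the ages of the mice are not given in the sources used here. The comparison asks which transcripts differ when PIEZO1, a calcium-permeable channel opened by membrane tension, is removed from these cells. Replicate libraries carry separate numbers, but nothing in the labels says that each came from its own culture or mouse, so the p-values measure the spread between libraries, which may be partly technical.

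In muscle fibres, dystrophin binds actin at one end and the tail of β-dystroglycan at the other, and α-dystroglycan on the cell surface holds laminin through sugar chains. The sarcoglycans and sarcospan form a subcomplex beside dystroglycan that steadies it in the membrane, and syntrophins and dystrobrevins sit on dystrophin as adaptors for signalling proteins. Utrophin, the close relative of dystrophin, takes its place in many other cells and at the neuromuscular junction, and loss of dystrophin or of some of the sarcoglycans causes muscular dystrophy.

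A count here is a unique molecular identifier (UMI), a tag set on a cDNA molecule at its polyadenylated end before PCR. Control libraries 1 to 3 held 740936, 931168 and 891531 counts, and the cKO-labelled libraries held 810096, 726378 and 769295. Levels are given as CPM, counts scaled to a common library total by edgeR's TMM method. A floor of 3 counts then equals between 3.26 and 4.20 CPM in single libraries. Because counts gather near the 3′ end, CPM was compared across libraries within a gene. Where genes are summed or set against each other below, this is by counts or by summed CPM, and neither is a level per length. In bulk RNA, fewer cells of a type and less RNA per cell cannot be told apart.

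*Piezo1* checks the labels first. It was counted 11, 5 and 6 times in the controls (9.25 ± 5.39 CPM, SD, n = 3) and 7, 12 and 9 in the cKO-labelled libraries (11.9 ± 3.41 CPM, SD, n = 3). The groups overlapped and *Piezo1* was not lower in the second, with a ratio of rates of 1.35 and an exact 95% interval (Poisson) from 0.744 to 2.47 that covers counting error only. The study's map of the floxed allele shows further exons after the deleted ones, so counts at the 3′ end may lie outside the deleted part and then check nothing. The gene *Ctu2* also overlaps the 3′ end of *Piezo1* on the opposite strand. Where counting ignores strand, their counts cannot be told apart, and the strand setting is not given in the sources used here. Directions below are therefore those of the cKO-labelled libraries.

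One library stood apart in the muscle genes. In a list of 30 genes of muscle differentiation found in the table, the summed level was 3121, 2113 and 2677 CPM in control libraries 1 to 3, against 3204, 4473 and 3412 CPM in the cKO-labelled libraries. The cKO-labelled library 2 was highest and control library 2 lowest. *Chrna1*, the most counted gene of the list, made up most of the sum in each control library and was itself lowest in cKO-labelled library 2, at 1180 CPM. The sums therefore say little of the other genes, which are given below. The same cKO-labelled library 2 had the highest level for 6 of the 8 complex members with any count, and control libraries 1 and 2 had the lowest for 4 and 3 of them. One of the 6 was *Dmd*, with only 6 counts there. How often each library was highest or lowest over all tested genes is not given here, so these numbers have no background to be read against.

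Of the 9 members, 7 passed edgeR's filter on low counts, and none of the 7 was called by edgeR's quasi-likelihood test at a Benjamini-Hochberg adjusted p under 0.05. In the whole table this test called 67 of 8551 genes, or 0.784%, 40 with higher and 27 with lower levels in the cKO-labelled libraries. DESeq2 gave an adjusted p to only 3 of the 7, *Dag1*, *Sgca* and *Sgcb*, and called none of these 3, against 27 of the 4007 genes to which it gave one (0.674%). The voom method of limma also called 0. One member, *Sgca*, had an unadjusted p under 0.05 in edgeR. The share of all tested genes under this cut is not given here, so such counts have no background to be read against. The estimates were above 0 for 6 members and below 0 for *Utrn*, with a median log2 fold change of 0.22, whereas the median of all tested genes was 0.00208 and 50.2% of them lay above 0. For each of the 8 members with counts, the levels of the 2 groups overlapped. Among all tested genes 8.20% were higher in every cKO-labelled library than in every control library, and 8.31% were lower.

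**Figure D1:**
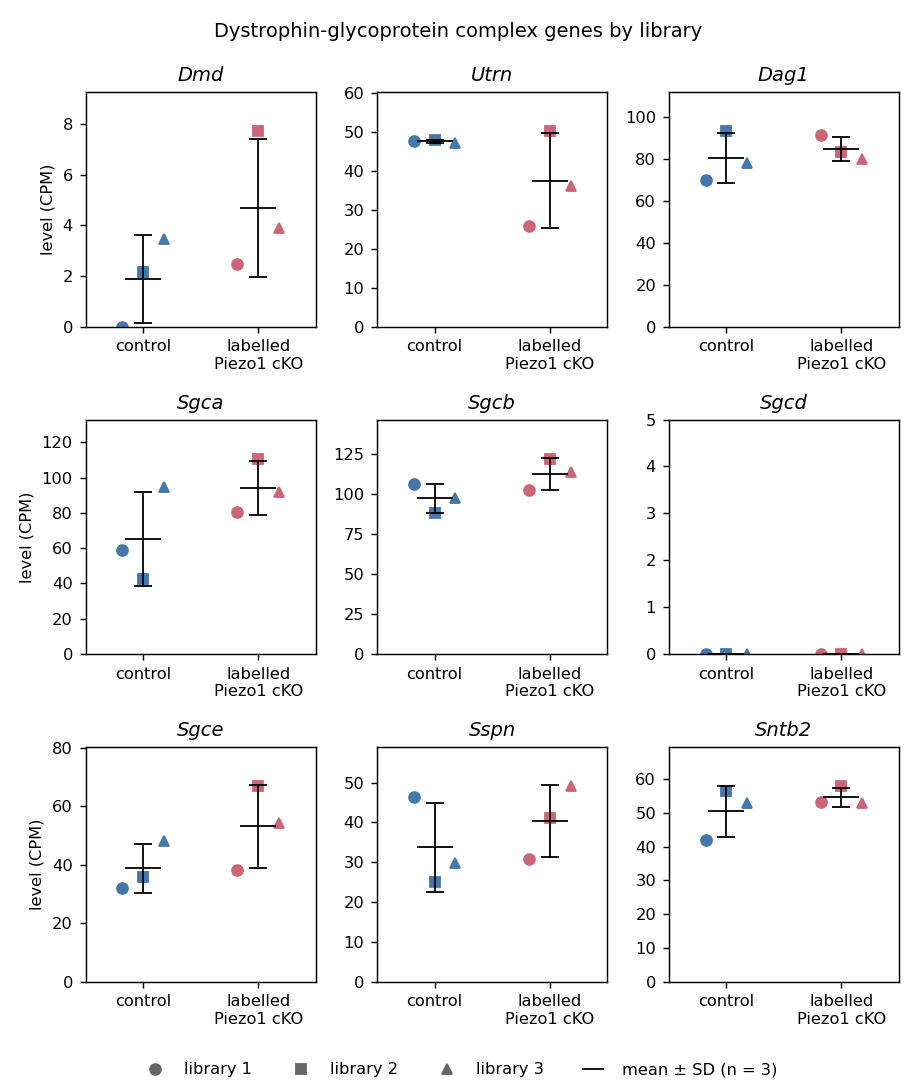
Level of each of the 9 complex genes in CPM (vertical axis) in the 3 control libraries and the 3 cKO-labelled libraries, with a marker per library and the mean ± SD as bars. The groups overlap in each of the 8 panels with counts, cKO-labelled library 2 is the highest point in 6 panels, and *Sgcd* lies at 0 throughout.

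*Dmd* encodes dystrophin, the rod that joins cortical actin to dystroglycan. It lies on chromosome X of GRCm38 from 82948870 to 85206141 on the plus strand and spans 2257.3 kb. The annotation (GENCODE) lists 3 protein-coding transcripts, the longest over 2257.2 kb and the shortest over 154.1 kb of the gene, and all 3 end within 5000 bp of its 3′ end. A 3′ count therefore cannot say whether it came from the long or the short dystrophin. Because both kinds share this end, the windows nearest to where they start are shown, each 300 bases long, from 250 bases before to 50 bases after a RefSeq start (GRCm38.p6, plus strand, 5′ to 3′). The long coding transcript starts at 82948903 in GENCODE, inside the upstream window, and the 2 short ones start at 85048413, past the end of the downstream window. The windows are in lower case, with capitals for the GC box GGGCGG or its reverse complement CCGCCC.
Dmd upstream start, chrX:82948620-82948919: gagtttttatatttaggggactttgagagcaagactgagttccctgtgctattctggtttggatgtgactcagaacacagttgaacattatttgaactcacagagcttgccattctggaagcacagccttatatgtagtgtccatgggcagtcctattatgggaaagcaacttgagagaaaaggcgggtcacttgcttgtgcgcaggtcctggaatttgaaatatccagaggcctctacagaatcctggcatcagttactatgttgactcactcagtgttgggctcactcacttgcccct
Dmd downstream start, chrX:85048045-85048344: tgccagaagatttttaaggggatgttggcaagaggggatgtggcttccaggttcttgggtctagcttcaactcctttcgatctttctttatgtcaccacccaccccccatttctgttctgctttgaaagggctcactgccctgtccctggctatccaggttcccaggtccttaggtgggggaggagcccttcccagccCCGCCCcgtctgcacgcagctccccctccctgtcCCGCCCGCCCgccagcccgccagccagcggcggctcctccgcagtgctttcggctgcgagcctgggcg
The upstream window was 45.7% G or C and held no GC box. The downstream window was 62.7% G or C and held 3, of which 2 share bases in the run CCGCCCGCCC. Over all 32851 such windows of the mouse table, 35.7% held at least 1 GC box on either strand and the median G or C content was 52.7%. The muscle E-box core CAGCTG, which reads the same on both strands, was in none of the 10 windows found for 7 of the 9 members and in 16.3% of all windows. These are matches of letters and no measure of binding.

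*Dmd* was counted 0, 2 and 3 times in control libraries 1 to 3, and 2, 6 and 3 times in the cKO-labelled libraries. The control level was 1.88 ± 1.75 CPM (SD, n = 3), against 4.69 ± 2.72 CPM (SD, n = 3) in the cKO-labelled libraries. In 5 of the 6 libraries it was at or under the floor of 3 counts, and only cKO-labelled library 2 stood above it. The sums were 5 and 11 counts, 2.33 times the rate, with a 95% Poisson interval (exact) of 0.747 to 8.56. *Dmd* did not pass the filter, and a fit with no filter gave it a log2 fold change of 1.16 with an edgeR adjusted p of 0.725. A difference in dystrophin transcripts was not detectable at this depth.

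*Utrn* encodes utrophin and lies on chromosome 10 from 12382188 to 12869365 on the minus strand. It was counted 34, 44 and 41 times in control libraries 1 to 3, or 47.6, 47.8 and 47.2 CPM. In the cKO-labelled libraries it was counted 21, 39 and 28 times, or 25.9, 50.2 and 36.2 CPM. The control libraries lay almost together, whereas the cKO-labelled ones spread from well below them to just above them. The means were 47.5 ± 0.335 and 37.4 ± 12.2 CPM (SD, n = 3 each), which put the log2 fold change at −0.35 (95% interval −0.83 to 0.14) with an edgeR adjusted p of 0.610. Without cKO-labelled library 2 the estimate was −0.62, with an edgeR adjusted p of 0.610. It was the only one of the 7 tested members with an estimate below 0, and it stayed below 0 in each of 14 alternative analyses, between −0.62 and −0.14. Of its 8 protein-coding transcripts, 4 end within 5000 bp of the 3′ end of the gene, so a count there cannot be assigned to one of these 4.

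The share of dystrophin counts among dystrophin and utrophin counts sets both genes against each other within a library. In control it was 0 of 34, 2 of 46 and 3 of 44 counts, that is 0%, 4.35% and 6.82%. A count of 0 of 34 allows a share of up to 8.82% by the floor of 3 counts, and its exact interval reaches 10.3%. In the cKO-labelled libraries it was 2 of 23, 6 of 45 and 3 of 31 counts, or 8.70%, 13.3% and 9.68%. The means were 3.72% ± 3.45 in control and 10.6% ± 2.44 in the other group (SD, n = 3 each). The floor of 3 counts corresponds to shares from 6.52% to 13.0% in single libraries, and the *Dmd* count was above it in cKO-labelled library 2 alone, so the order of the shares cannot be read at this depth. The exact (Clopper-Pearson) 95% intervals of single libraries, from 5.05% to 26.8% in cKO-labelled library 2 and from 1.43% to 18.7% in control library 3, overlapped widely. No test was run on these shares. Utrophin made up most of the sum in every library as counts, which are not levels per length.

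**Figure D2:**
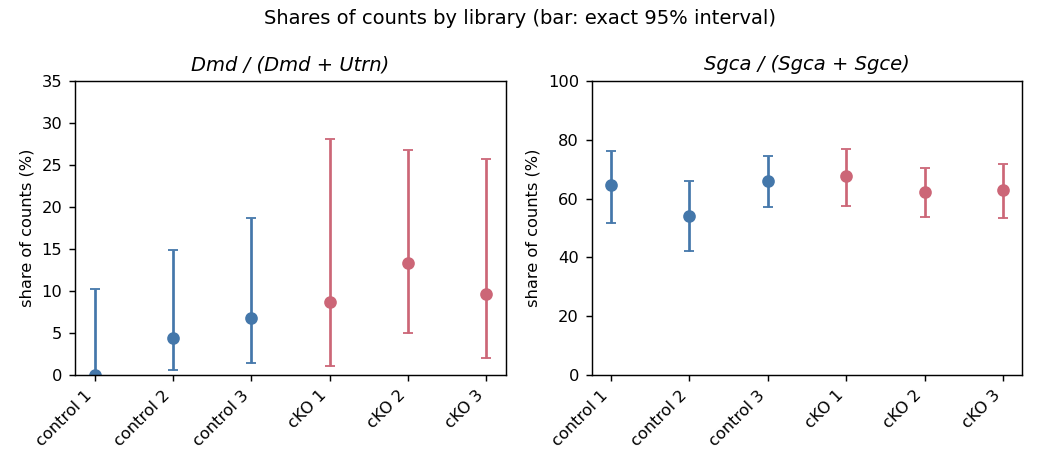
Share of *Dmd* among *Dmd* and *Utrn* counts (left) and of *Sgca* among *Sgca* and *Sgce* counts (right), in percent, per library, with exact 95% intervals as bars. The left shares run from 0% to 6.82% in control and from 8.70% to 13.3% in the cKO-labelled libraries with wide bars, and the right shares lie between 54.2% and 67.7%.

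*Dag1* encodes dystroglycan, the single precursor that is cut into the laminin-binding α subunit and the membrane-spanning β subunit. It lies on chromosome 9 from 108204634 to 108263958 (minus strand). It was represented by counts of 50, 86 and 68 in control libraries 1 to 3 (70.1, 93.5 and 78.2 CPM) and 74, 65 and 62 in the cKO-labelled libraries (91.4, 83.6 and 80.0 CPM). All 3 cKO-labelled libraries fell inside the range of the control libraries. The means of 80.6 ± 11.9 and 85.0 ± 5.80 CPM (SD, n = 3 each) gave a log2 fold change of 0.07 (95% interval −0.29 to 0.42) and an edgeR adjusted p of 0.928. Its 95% interval runs from 0.820-fold to 1.34-fold. The sign turned in 1 of 14 alternatives, at −0.01 without control library 1.

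The sarcoglycans are single-pass glycoproteins of the muscle membrane, and mutations in several of them cause limb-girdle muscular dystrophies. *Sgca* encodes α-sarcoglycan, the form of striated muscle, and lies on chromosome 11 from 94962791 to 94976327 on the minus strand. As it had the largest estimate of the 7 tested members, its start window is shown in the same way (RefSeq, GRCm38.p6, minus strand, 5′ to 3′), and it held neither a GC box nor the E-box core.
Sgca start, chr11:94976278-94976577: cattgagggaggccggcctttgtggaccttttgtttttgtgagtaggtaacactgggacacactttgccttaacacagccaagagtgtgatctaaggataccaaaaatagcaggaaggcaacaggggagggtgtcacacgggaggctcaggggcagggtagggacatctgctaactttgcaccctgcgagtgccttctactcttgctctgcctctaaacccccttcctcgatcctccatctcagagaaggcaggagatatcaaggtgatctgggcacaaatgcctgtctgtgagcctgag
*Sgca* was counted 42, 39 and 82 times in control libraries 1 to 3, or 58.9, 42.4 and 94.3 CPM. The cKO-labelled libraries held 65, 86 and 71 counts, or 80.3, 110.7 and 91.7 CPM. Control libraries 1 and 2 were lower than every cKO-labelled library, but control library 3 was above 2 of them. The means were 65.2 ± 26.6 and 94.2 ± 15.4 CPM (SD, n = 3 each), 1.44-fold (95% interval 1.07 to 1.94), with an edgeR adjusted p of 0.271 (unadjusted 0.0162) and a DESeq2 adjusted p of 0.619. Whether *Sgca* was called depended on 1 control library. Without control library 3 the log2 fold change was 0.91 in place of 0.53 and edgeR's adjusted p was 0.0158, and without control library 2 it was 0.28 with an adjusted p of 0.731. Without cKO-labelled library 2 it was 0.40, with an edgeR adjusted p of 0.745. *Hils1* lies within *Sgca* on the opposite strand, and the strand setting of the counting is not given in the sources used here.

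*Sgce* encodes ε-sarcoglycan, the relative of α-sarcoglycan found in many tissues, and lies on chromosome 6 from 4674350 to 4747207 (minus strand). It was represented by counts of 23, 33 and 42 in control libraries 1 to 3 (32.2, 35.9 and 48.3 CPM) and 31, 52 and 42 in the cKO-labelled libraries (38.3, 66.9 and 54.2 CPM). The cKO-labelled libraries 2 and 3 were above all control libraries, and library 1 fell among them. The means of 38.8 ± 8.44 and 53.1 ± 14.3 CPM (SD, n = 3 each) gave a log2 fold change of 0.44 (95% interval −0.04 to 0.92) with an edgeR adjusted p of 0.462. Without cKO-labelled library 2 the log2 fold change was 0.24 with an edgeR adjusted p of 0.886. *Peg10*, an imprinted gene that starts 99 bp from the start of *Sgce* on the opposite strand, was counted 0, 3 and 2 times in control and 2, 3 and 4 times in the cKO-labelled libraries, too few for a comparison.

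The α form made up 64.6%, 54.2% and 66.1% of the summed *Sgca* and *Sgce* counts in control libraries 1 to 3, against 67.7%, 62.3% and 62.8% in the cKO-labelled libraries. The groups overlapped, and the means of 61.6% ± 6.51 and 64.3% ± 2.97 (SD, n = 3 each) differed by 2.65 percentage points, less than the spread between the control libraries.

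*Sgcb* encodes β-sarcoglycan and lies on chromosome 5 from 73632749 to 73647790 (minus strand). Counts of 76, 81 and 85 in control libraries 1 to 3 were 106.5, 88.0 and 97.8 CPM, and those of 83, 95 and 88 in the cKO-labelled libraries were 102.5, 122.3 and 113.6 CPM. Control library 1 lay above cKO-labelled library 1, and the other control libraries lay below all 3. The means of 97.4 ± 9.24 and 112.8 ± 9.90 CPM (SD, n = 3 each) gave a log2 fold change of 0.22 (95% interval −0.11 to 0.54) with an edgeR adjusted p of 0.653. *Sgcd* encodes δ-sarcoglycan, which pairs with β-sarcoglycan early in assembly, and lies on chromosome 11 from 46896253 to 47988969 on the minus strand. It was counted 0 times in each of the 6 libraries, 0 of 4869404 counts, which allows up to 0.617 CPM over the 6 libraries together. At this depth α-, β- and ε-sarcoglycan transcripts were thus measured in all 6 libraries, and δ-sarcoglycan transcripts were at 0.

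*Sspn* encodes sarcospan, a small membrane protein that joins the sarcoglycan subcomplex, and lies on chromosome 6 from 145931641 to 145965223 on the plus strand. It was counted 33, 23 and 26 times in control libraries 1 to 3 (46.2, 25.0 and 29.9 CPM) and 25, 32 and 38 times in the cKO-labelled libraries (30.9, 41.2 and 49.1 CPM). Both groups spread over nearly the same range. The means of 33.7 ± 11.1 and 40.4 ± 9.12 CPM (SD, n = 3 each) gave a log2 fold change of 0.28 (95% interval −0.23 to 0.80) with an edgeR adjusted p of 0.721, and the log2 fold change lay between 0.11 without control library 2 and 0.56 without control library 1. The antisense gene *Sspnos* overlaps it, and the 2 cannot be told apart where counting ignores strand.

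*Sntb2* encodes β2-syntrophin, the PDZ-domain adaptor that goes mainly with utrophin, and lies on chromosome 8 from 106935750 to 107019714 (plus strand). It was represented by counts of 30, 52 and 46 in control libraries 1 to 3 (42.0, 56.5 and 52.9 CPM) and 43, 45 and 41 in the cKO-labelled libraries (53.1, 57.9 and 52.9 CPM). Only control library 1 lay apart, below the others. The means of 50.5 ± 7.54 and 54.7 ± 2.82 CPM (SD, n = 3 each) gave a log2 fold change of 0.10 (95% interval −0.33 to 0.53) with an edgeR adjusted p of 0.914. The log2 fold change was 0.00039 without control library 1, 0.20 without control library 2 and 0.058 without cKO-labelled library 2.

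Of 9 other genes of the complex in the table, 4 passed the filter. None was called by edgeR, nor by DESeq2, which gave an adjusted p to 1 of the 4. In edgeR 2 had an unadjusted p under 0.05, a count without a background here. The estimates were above 0 for 2 and below 0 for 2, with a median log2 fold change of 0.20, and 0.51 over all 9 with no filter. For 2 of the 4 tested, *Dtna* among them, every cKO-labelled library was above every control library, a pattern that 8.20% of all tested genes had. *Dtna* encodes α-dystrobrevin, the dystrophin relative that binds syntrophins at the muscle membrane. It had 12.6, 8.69 and 12.7 CPM in control libraries 1 to 3 and 23.5, 34.7 and 15.5 CPM in the cKO-labelled libraries. The log2 fold change was 1.12 (95% interval 0.40 to 1.84), 2.18-fold, with an edgeR adjusted p of 0.133, and without cKO-labelled library 2 it was 0.79 with an adjusted p of 0.664. *Dtna* reached the low count filter's minimum in the 3 cKO-labelled libraries alone, so it was tested through the group where it is higher, and with no filter edgeR's adjusted p was 0.171.

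*Dtnb*, the β-dystrobrevin gene, had 43.6 ± 11.1 CPM in control and 33.4 ± 4.48 CPM in the cKO-labelled libraries (SD, n = 3 each), with overlapping groups and an edgeR adjusted p of 0.572. *Drp2*, which encodes a dystrophin-related protein known from myelinating Schwann cells, had 44.8, 71.7 and 73.6 CPM in control and 72.9, 51.5 and 52.9 CPM in the cKO-labelled libraries, and an edgeR adjusted p of 0.898. Its groups overlapped in both directions. The others described here were too low to test. The β1-syntrophin gene *Sntb1* had 2, 2 and 5 counts in control and 5, 8 and 3 in the cKO-labelled libraries. *Nos1*, the neuronal nitric oxide synthase held at the membrane by the complex, was counted at most once in a library, and the γ2-syntrophin gene *Sntg2* once in all 6. *Cav3*, the caveolin of muscle that binds dystroglycan, had 2, 1 and 2 counts in control and 1, 13 and 2 in the cKO-labelled libraries, so that nearly all of its counts in that group came from library 2.

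**Figure D3:**
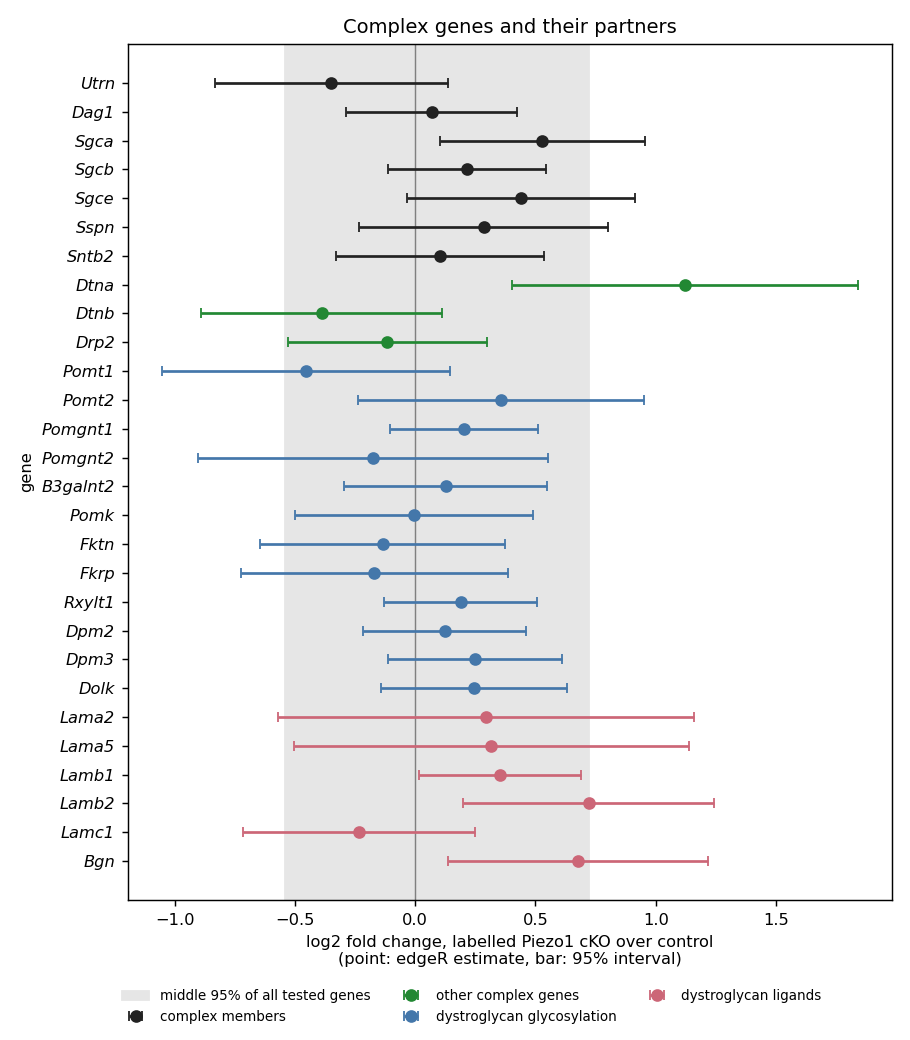
Log2 fold change (horizontal axis) of tested genes of the complex, of dystroglycan glycosylation and of the dystroglycan ligands, in the cKO-labelled libraries over control, with points for edgeR estimates and bars for 95% intervals. The grey band from −0.54 to 0.72 holds the middle 95% of all tested genes, and *Dtna* at 1.12 is the only point drawn outside it.

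α-Dystroglycan binds laminin only after a chain of enzymes has built and extended its O-linked sugars. Of 18 genes of this pathway in the table, 12 passed the filter, none was called by edgeR, nor by DESeq2, which gave an adjusted p to 5 of the 12, and 0 had an unadjusted p under 0.05 in edgeR. The estimates were above 0 for 7 and below 0 for 5, with a median log2 fold change of 0.12. The levels of 2 genes were higher in every cKO-labelled library (background 8.20%) and those of 1, *Pomt1*, were lower in each (background 8.31%). *Pomt1* is named after its values were seen, encodes a protein O-mannosyltransferase that starts the chain, and had 27.8 ± 2.38 CPM in control and 20.4 ± 2.95 CPM in the cKO-labelled libraries (SD, n = 3 each; edgeR adjusted p of 0.576). The other 2 were *Pomgnt1*, which adds the next sugar to O-mannose, and *Rxylt1*, which adds a xylose to the ribitol phosphate end. *Pomgnt1* had 118.7 ± 4.55 and 136.8 ± 9.56 CPM (SD, n = 3 each), with an edgeR adjusted p of 0.655. *Rxylt1* had 105.0 ± 10.7 and 120.2 ± 3.84 CPM (SD, n = 3 each), with an edgeR adjusted p of 0.698. *Dpm2*, a regulatory subunit of the enzyme that makes the mannose donor, had 92.0 ± 5.49 and 100.3 ± 14.2 CPM (SD, n = 3 each), with an edgeR adjusted p of 0.848.

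On the outer side, 12 genes for dystroglycan ligands and other extracellular partners were in the table, and 6 passed the filter. None was called by edgeR, nor by DESeq2, which gave an adjusted p to *Lamb1* and *Bgn* alone. In edgeR 3 had an unadjusted p under 0.05, a count without a background here. The estimates were above 0 for 5 of the 6 tested, with a median log2 fold change of 0.33. *Bgn* encodes biglycan, a proteoglycan of the matrix that binds α-dystroglycan and sarcoglycans. It had 56.1, 32.6 and 86.3 CPM in control libraries 1 to 3 and 72.9, 106.8 and 99.4 CPM in the cKO-labelled libraries, with control library 2 lowest and control library 3 inside the other group. Its log2 fold change of 0.68 (95% interval 0.14 to 1.22) had an edgeR adjusted p of 0.276, which became 0.0040 without control library 3 and 0.0249 without cKO-labelled library 1. Without control library 2 the log2 fold change was 0.37, with an edgeR adjusted p of 0.602. *Lamb1*, the laminin β1 chain gene, had 89.6 ± 11.0 and 114.2 ± 20.2 CPM (SD, n = 3 each) with an edgeR adjusted p of 0.395. *Lamc1*, for the γ1 chain shared by most laminins, had 47.4 ± 9.17 and 40.1 ± 11.2 CPM (SD, n = 3 each) with an edgeR adjusted p of 0.774. *Lamb2*, named after its values were seen, was the only one of the 6 whose groups did not overlap (higher in every cKO-labelled library, background 8.20%), with 25.8 ± 3.52 CPM in control against 42.3 ± 1.05 CPM in the cKO-labelled libraries (SD, n = 3 each; edgeR adjusted p of 0.191).

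On the inner side, 8 of 15 genes for proteins that link the complex to actin and intermediate filaments passed the filter, none was called by edgeR, nor by DESeq2, which gave an adjusted p to 6 of the 8, and 0 had an unadjusted p under 0.05 in edgeR. Here 6 of the 8 estimates were below 0, with a median log2 fold change of −0.08. *Actb*, the cytoplasmic β-actin gene, had 3848, 3579 and 3201 CPM in control libraries 1 to 3 and 3307, 1872 and 3246 CPM in the cKO-labelled libraries. The cKO-labelled library 2 was far below the other 5, and edgeR's adjusted p was 0.444. *Actg1*, for cytoplasmic γ-actin, was also lowest in that library, with 504.5 CPM against 652.1 to 748.3 CPM in the rest, and had an edgeR adjusted p of 0.573. *Des*, for the muscle intermediate filament protein desmin, had 513.9 ± 94.7 and 550.0 ± 42.9 CPM (SD, n = 3 each) with an edgeR adjusted p of 0.846.

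Integrin α7β1 is the other laminin receptor of skeletal muscle and acts beside dystroglycan. *Itga7* had 242.9 ± 4.95 CPM in control and 249.2 ± 38.7 CPM in the cKO-labelled libraries (SD, n = 3 each), with an edgeR adjusted p of 0.949. *Itgb1* had 657.6 ± 42.3 and 576.7 ± 53.0 CPM (SD, n = 3 each) with an edgeR adjusted p of 0.620, and every cKO-labelled library lay below every control library, as for 8.31% of tested genes. Neither gene of this receptor was called.

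Genes of muscle differentiation are given beside those of the complex. Of the 30 genes found, 19 were tested and edgeR called 2 higher and none lower, whereas with no filter on low counts it called 9 of the 30 higher and none lower. In the whole table the fit with no filter called 129 of 19247 genes, 82 higher and 47 lower. For 13 of the 19 every cKO-labelled library was above every control library, against 8.20% of all tested genes. Of these 13, 3 reached the filter's minimum in the cKO-labelled libraries alone and were thus tested through the group where they are higher, *Tnni2* among them, and the other 10 are out of the 16 genes that remain. The list was drawn up with earlier results of these data known, so its count is no independent support. *Actn3*, for the α-actinin of fast fibres, rose 2.29-fold (95% interval 1.80 to 2.92, edgeR adjusted p of 1.0e-05), from 62.4 ± 16.6 to 143.3 ± 15.6 CPM (SD, n = 3 each). *Tnni2*, for fast troponin I, rose 4.47-fold (95% interval 2.39 to 8.34, edgeR adjusted p of 0.0046), from 5.06 ± 3.14 to 22.0 ± 7.95 CPM (SD, n = 3 each). Without cKO-labelled library 2 its log2 fold change was 1.84, against 2.16 with all libraries, and it was not called, at an edgeR adjusted p of 0.277. With no filter edgeR's adjusted p for *Tnni2* was 0.00101, and DESeq2 gave it none. *Acta1*, for skeletal α-actin, was called by DESeq2 (adjusted p of 0.00485) and not by edgeR (adjusted p of 0.241), with 64.5, 62.0 and 92.0 CPM in control against 164.3, 454.3 and 264.7 CPM in the cKO-labelled libraries. It was called by voom (adjusted p of 0.00032), and by edgeR without cKO-labelled library 1 (adjusted p of 2.6e-15) or library 2 (0.0011). The 3 listed genes with the highest counts that were not called were *Chrna1*, *Tnnt2* and *Chrnd*, with log2 fold changes of −0.19, 0.16 and 0.28 and edgeR adjusted p of 0.678, 0.703 and 0.468. The cKO-labelled library 2, highest for *Actn3*, *Tnni2* and *Acta1*, was also highest for *Dmd*, *Utrn*, *Sgca*, *Sgcb*, *Sgce*, *Sntb2* and *Dtna*. It was not the highest for *Dag1*, *Sspn*, *Dtnb* or *Drp2*, and for *Chrna1* it was the lowest at 1180 CPM. The part of differentiation in the levels of the complex genes was not tested.

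**Figure D4:**
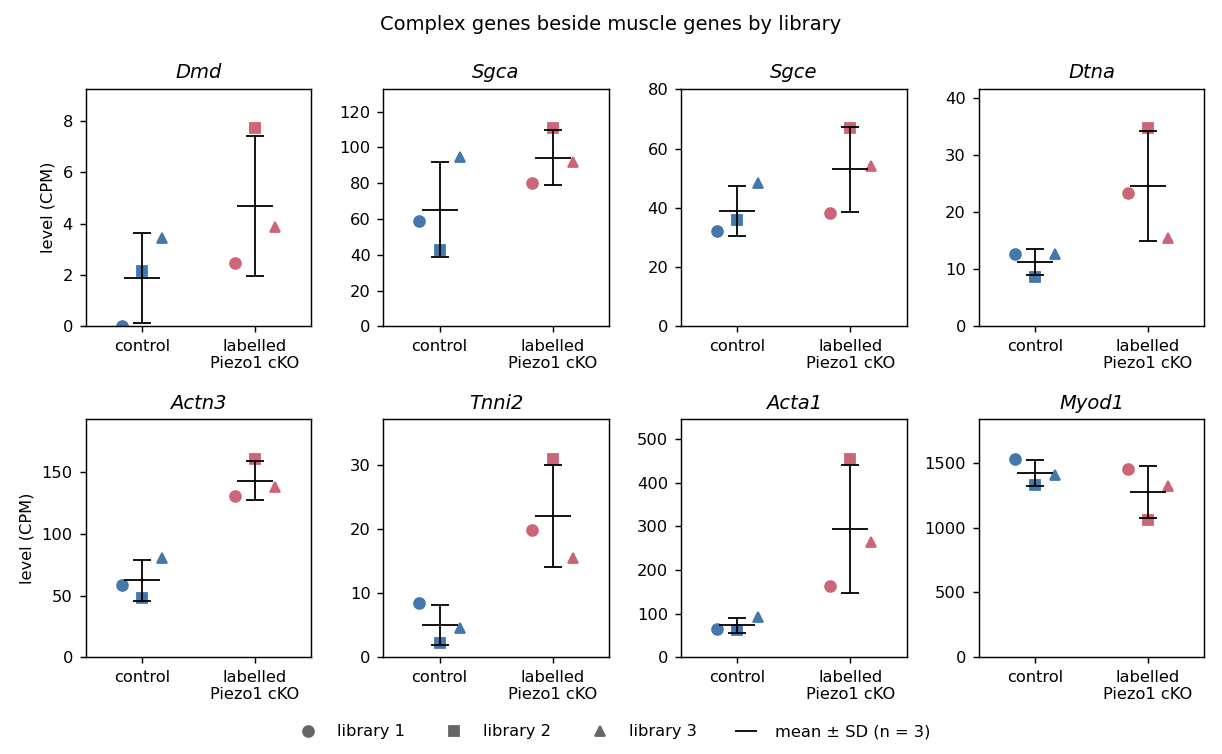
Levels in CPM (vertical axis) of the complex genes *Dmd*, *Sgca*, *Sgce* and *Dtna* above those of the muscle genes *Actn3*, *Tnni2*, *Acta1* and *Myod1*, with a marker per library and mean ± SD as bars. The cKO-labelled library 2 is the highest point in every panel but *Myod1*, where it is the lowest at 1059 CPM. The complex members *Dag1* and *Sspn*, not drawn here, were highest in other libraries.

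The labelled cell type was checked with 9 markers of MuSCs and myoblasts. All 9 had counts in at least 1 library, *Chodl* with 0 to 2 counts, and their summed level was 2847, 2592 and 2751 CPM in control libraries 1 to 3 and 2853, 2257 and 2584 CPM in the cKO-labelled libraries. *Myod1*, the myoblast transcription factor, had the highest count among them, with 1421 ± 99.9 and 1276 ± 199 CPM (SD, n = 3 each) and an edgeR adjusted p of 0.743. Together with *Des* it made up most of the sum in every library, so the sum says little of the other markers. Of the 8 markers tested none was called by edgeR at the filter used, and 3 had an unadjusted p under 0.05, a count without a background here. In every cKO-labelled library 1 marker was higher and 2 were lower than in every control library (background 8.20% and 8.31%). These 3 are named after their values were seen. *Sdc4*, for the surface proteoglycan syndecan-4, had 215.8, 307.6 and 219.8 CPM in control against 206.3, 162.2 and 145.9 CPM, with an edgeR adjusted p of 0.0609 that became 0.0327 with no filter on low counts, and a DESeq2 adjusted p of 0.251. *Vcam1*, the gene of the protein used in the sort, had 136.0 ± 14.2 and 99.8 ± 15.1 CPM (SD, n = 3 each; edgeR adjusted p of 0.185). *Cdh15*, for M-cadherin, had 75.7, 95.6 and 134.6 CPM in control against 161.8, 142.8 and 139.4 CPM (edgeR adjusted p of 0.118). The part of these differences in the values of the complex genes was not tested.

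Dystroglycan, utrophin, sarcospan and ε-sarcoglycan are not particular to muscle, so markers of other cells are given beside them. The 5 endothelial markers in the table summed to 10, 5 and 1 counts in control and 3, 4 and 14 in the cKO-labelled libraries, with *Tek* the most counted and *Tie1* at 0. The 3 haematopoietic markers in the table summed to 7, 25 and 11 counts in control and 8, 11 and 8 in the cKO-labelled libraries, with *Cd68* the most counted. The 4 Schwann cell markers in the table had at most 6 counts in a library.

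One marker of another cell type was called, in the fibro-adipogenic list. The 6 fibro-adipogenic markers in the table summed to 39.2, 31.5 and 56.4 CPM in control libraries 1 to 3 and 18.5, 18.0 and 20.7 CPM in the cKO-labelled libraries, with *Pi16* at 0. Most of each control sum was *Dcn*, so the sums do not show a fall in the other markers. *Dcn*, the decorin gene and the one with the most counts in control, had 25.2, 25.0 and 42.6 CPM in control and 9.88, 6.43 and 3.87 CPM in the cKO-labelled libraries. It fell by 2.17 on the log2 scale with an edgeR adjusted p of 3.9e-04, and DESeq2 gave it no adjusted p. It reached the filter's minimum in the 3 control libraries alone, so it was tested through the group where it is higher, and with no filter edgeR's adjusted p was 1.6e-05. *Ly6a*, the gene of Sca1, which the sort selected against, went the other way and is named after its values were seen. It had 2, 2 and 3 counts in control and 5, 8 and 9 in the cKO-labelled libraries, a ratio of rates of 3.33 (exact 95% Poisson interval 1.37 to 9.23). *Ly6a* did not pass the filter, and a fit with no filter gave it an edgeR adjusted p of 0.335. The 6 pericyte and smooth muscle markers in the table summed to 49.0, 35.9 and 41.4 CPM in control and 69.2, 69.5 and 99.4 CPM in the cKO-labelled libraries, most of it *Cspg4*, with 31.7 ± 6.55 and 53.0 ± 14.9 CPM (SD, n = 3 each) and an edgeR adjusted p of 0.143. The part of these cells in the values of the complex genes was not tested.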

How the data were processed

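Total RNA was reverse transcribed with barcoded oligo-dT primers and amplified, and the submitters' processing notes name GRCm38, STAR 2.7.9a, featureCounts 2.0.1 and UMI-tools 1.1.1, used by the authors for mapping, assignment to genes and UMI counting. The deposited values are raw counts per gene, with 1 column for each of 6 libraries. Settings for multi-mapping reads and for strand are not given in the sources used here.

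Groups were taken from the sample labels. Counts were analysed in R 4.3.3 with edgeR 4.0.16 (TMM, low count filter with a minimum of 10, robust quasi-likelihood fit without covariates, Benjamini-Hochberg adjustment over the 8551 genes tested, called at an adjusted p under 0.05). CPM used the effective library sizes of this fit. Genes that failed the filter were given as counts, for *Piezo1*, *Dmd* and *Ly6a* with an exact Poisson interval of their rate ratio. Intervals and floors cover counting error only. Gene coordinates came from GENCODE on GRCm38, and start windows from RefSeq (GRCm38.p6), where 7 of the 9 members matched.

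The members and gene lists were chosen with earlier results of these data known. The text names all members, *Piezo1*, the other genes of the complex, *Peg10*, and in each other list the genes called by edgeR or DESeq2 and the 3 tested genes with the highest counts, or the most abundant marker. Some genes that this rule names are not reported here. Other genes are marked as named after their values were seen. The alternatives were DESeq2 1.42.0, voom in limma 3.58.1, the size factors of DESeq2 within edgeR, scaling by totals alone, cyclic loess with 3 iterations, no filter, at least 10 counts in every library, an adjusted p under 0.1, the replicate number as a block and each library left out in turn. The calculations were tested on simulated data.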

Additional observations from a re-analysis of the deposited data

How the results depend on the processing

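The number of complex members called was 0 in each analysis but the one without control library 3, where *Sgca* was called (leave-one-out range 0 to 1). Over the whole table, 67 genes were called, against 27 by DESeq2, 38 with cyclic loess, 129 with no filter, 124 at an adjusted p under 0.1 and 6 to 174 with 1 library left out, the 6 without cKO-labelled library 2. With total counts only, the median log2 fold change of all tested genes was 0.08 and 73.1% of 67 calls were higher, against 59.7% with TMM and 44.4% with DESeq2. The share of *Dmd* counts, which rests on counts near the floor, differed by 4.99 to 8.39 percentage points (cKO-labelled minus control) with 1 library left out, and that of *Sgca* differed by −1.09 to 4.90 points. With 1 library left out, log2 fold changes ran from −0.012 to 0.198 for *Dag1*, −0.026 to 0.236 for *Des* and −0.093 to 0.129 for *Itga7*. For *Cd68* they ran from −0.215 to 0.132, without a value for the fits that left out control library 2 or cKO-labelled library 2. The sign of each of these genes thus turned, and cyclic loess turned *Chrna1* to 0.073 and *Myod1* to 0.091. The cause was not tested. Same-numbered libraries share only a number. The correlations of their deviations from the group means were −0.14, −0.20 and 0.01, and 0 of 6 libraries correlated best with their own number. With the replicate block 46 genes and 0 members were called, and *Acta1* was called (edgeR adjusted p of 0.00418). *Dmd*, *Sgcd* and *Piezo1* were too low for their differences to be read at this depth.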
